A study of Mus musculus with 11 samples.

Results

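The genes described here are 10 genes of apical-basal polarity, measured in single mouse embryos at the 8-cell stage. They were chosen by name and found in the deposited gene tables by their Ensembl identifiers, and all 10 of 54146 listed genes were found once each. They comprise the PAR complex genes *Pard3*, *Pard6b*, *Prkci* and *Prkcz*, the small GTPase genes *Cdc42* and *Rhoa*, the apical linker gene *Ezr*, and the basolateral genes *Mark2*, *Llgl1* and *Scrib*.

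The embryos were C57BL/6 and came from intercrosses of *Prdm10* heterozygotes at embryonic day 2.5. The 5 mutants (*Prdm10* Δ/Δ) carried on both alleles a germline deletion of an exon of *Prdm10*, which encodes a zinc finger DNA-binding protein. The 6 controls were +/+ or Δ/+ embryos that were not told apart, so the control group mixes embryos with 1 and 2 intact copies. Each embryo gave 1 Smart-seq2 library and was assigned to its group by whether the deleted exon was detected in its cDNA. Batch 1 held 3 controls and 2 mutants and was pre-amplified with 16 PCR cycles, and batch 2 held 3 controls and 3 mutants with 13 cycles, so collection and cycle number cannot be told apart.

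At the 8-cell stage the blastomeres of the mouse embryo flatten against each other and acquire an apical domain on their outer face. The apical domain is built by the PAR complex, in which the scaffold PAR3 and the adaptor PAR6 hold an atypical protein kinase C, PKCι or PKCζ, that CDC42 helps to activate. Ezrin ties the apical membrane to cortical actin, and RHOA controls the contractile cortex. MARK2 (PAR1), LLGL1 and SCRIB mark the basolateral side, where they and the atypical kinase exclude each other.

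Summed expected counts ranged from 3534735 to 8265840 per library. Libraries correlated with each other at 0.783 to 0.925 (Pearson, log2 normalised counts across genes), and none was a copy of another. Preimplantation markers summed to between 6270 and 8197 TPM in every embryo, while *Cdx2*, which marks later trophectoderm, stayed at or below 1.3 TPM. Most of that sum was *Dppa3* (4240 to 5987 TPM) and *Dppa5a* (1422 to 2519 TPM). Other markers of the list varied more, *Pou5f1* from 34.2 to 486 TPM and *Nanog* from 6.1 to 52.1 TPM. *Prdm10* itself is no independent check of the labels, because its deleted exon was used to assign the embryos. Its TPM ran from 11.1 to 24.8 in controls and from 4.88 to 8.16 in mutants, so the groups did not overlap. This held for 0.871% of the genes tested. Its normalised counts overlapped, at 124 to 381 in controls and 104 to 202 in mutants. The fold change on counts was smaller and was not called (log2 fold change -0.66 ± 0.26 (SE), DESeq2 adjusted p = 0.216), and it was called when the longer effective length of the gene in mutants was taken into account (-1.29, DESeq2 adjusted p = 3.11e-05). The effective length of *Prdm10* lay between 2565 and 3357 bases in controls and between 4348 and 5051 bases in mutants.

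Among the 10 genes, *Prkci* was the only one in the study's list of genes bound by PRDM10 in mouse embryonic stem cells, and the RefSeq promoter window lay inside the listed binding region. Its sequence is shown for that reason. It covers 250 bases before to 50 after the transcription start, at chr3:30995521-30995820 on the plus strand (GRCm38.p6). The capitals mark the stretches closest to the core of the probe to which PRDM10 was bound in gel shifts. In both probes the capitals mark the core, which is the stretch between the first and the last base at which the WT and MUT probes differ.
WT probe: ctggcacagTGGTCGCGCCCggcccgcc
MUT probe: ctggcacagCAACCGCATTTggcccgcc
*Prkci* promoter: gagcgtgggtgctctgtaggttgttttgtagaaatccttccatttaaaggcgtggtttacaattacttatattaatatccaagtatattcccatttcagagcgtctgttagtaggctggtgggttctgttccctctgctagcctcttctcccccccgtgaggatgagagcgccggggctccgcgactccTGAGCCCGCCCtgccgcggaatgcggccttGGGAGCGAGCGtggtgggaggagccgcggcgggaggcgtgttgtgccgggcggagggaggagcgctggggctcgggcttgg

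The core of 11 bases, TGGTCGCGCCC (GGGCGCGACCA on the other strand), was searched on both strands. The *Prkci* window held 2 equally close matches of 3 mismatches each, at bases 190 to 200 of the window on the plus strand and at bases 220 to 230 on the minus strand. Of 32851 promoter windows of the same length, 47.2% held a match at least as close. The closest match among the windows of the 10 genes lay in 1 of the 2 *Rhoa* windows, with 1 mismatch, a closeness that 0.788% of all windows reached, and *Rhoa* was not in the list of bound genes. A match of letters is a description of these windows, and *Scrib* was without an entry in the promoter table.

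The levels of the 10 genes spanned more than 2 orders of magnitude in TPM, which is comparable between genes because it is scaled by gene length. *Rhoa* (350 ± 48.1 TPM, SD, n = 11) and *Cdc42* (327 ± 38.2 TPM) were the most abundant, each above at least 95.7% of the 11675 genes that averaged 1 TPM or more. *Mark2* (40.8 ± 13.3 TPM) and *Prkcz* (25.2 ± 9.06 TPM) came next. *Llgl1* averaged 9.23 ± 3.67 TPM, *Scrib* 7.69 ± 4.75 TPM, *Pard3* 5.91 ± 3.49 TPM and *Pard6b* 5.34 ± 1.88 TPM. *Prkci* (2.76 ± 1.35 TPM) and *Ezr* (1.89 ± 2.84 TPM) were the lowest.

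The steps in this order that held in all 11 embryos were *Cdc42* above *Mark2* and *Prkcz* above *Llgl1*. Ratios between genes are given as log2 ratios of (TPM + 1), which understate differences from genes near 0. *Rhoa* and *Cdc42* did not differ beyond their spread (log2 ratio 0.10 ± 0.20, SD, n = 11), and neither did *Mark2* and *Prkcz* (0.71 ± 0.75), nor any neighbours from *Llgl1* down. Between embryos *Cdc42* and *Rhoa* varied least, with coefficients of variation of 11.7% and 13.7%, and *Ezr* most, with 151%. The TPM of several genes also rests on which isoforms RSEM assigned: the effective length ran from 638 to 2000 bases for *Scrib* and from 1414 to 2988 for *Pard3*, while it stayed at 3325 for *Pard6b*, which has 1 annotated transcript. *Rhoa* shares 324 exonic bases with *Gm37401* on the opposite strand, listed at 266 TPM on average, and unstranded reads in that stretch cannot be told apart.

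**Figure D1:**
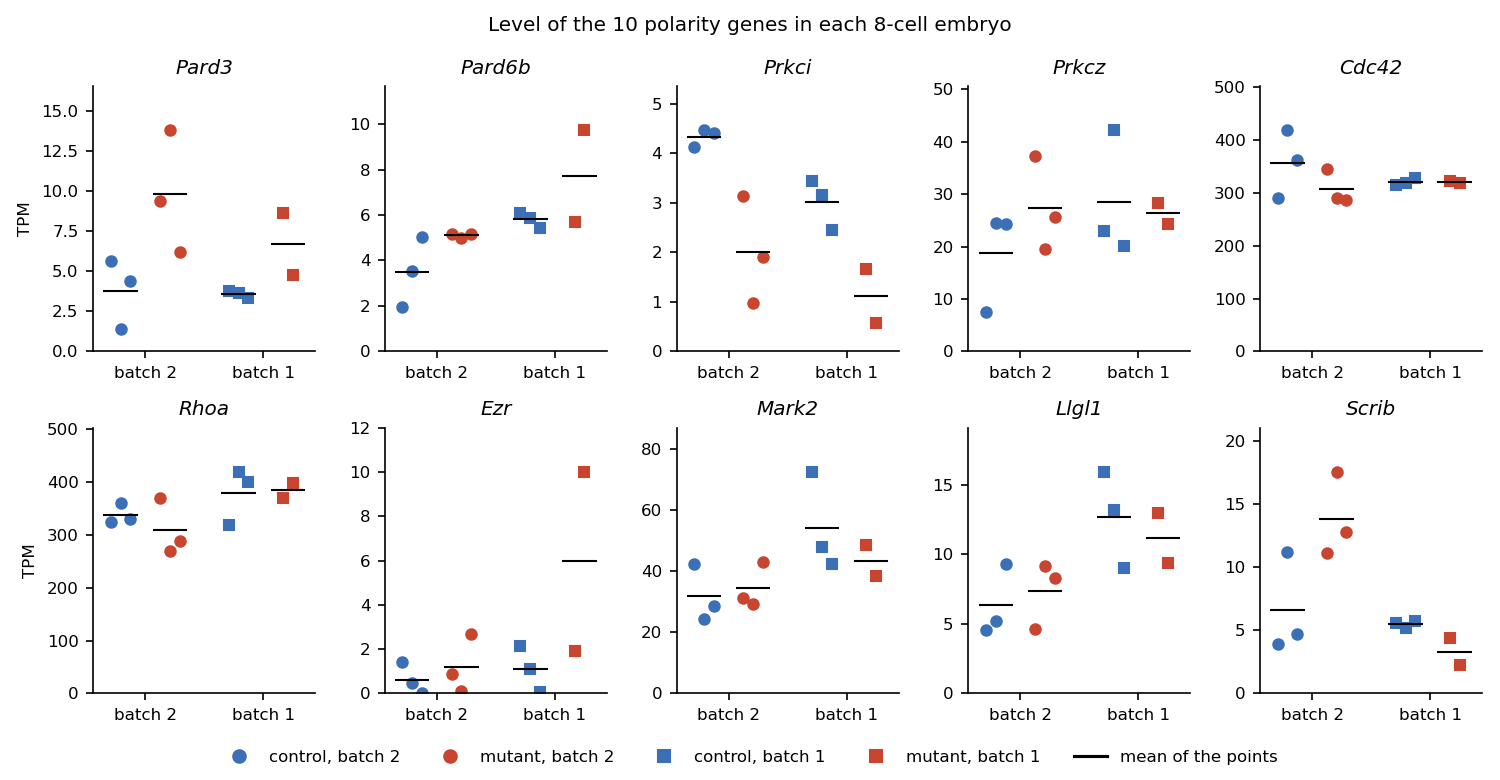
TPM (vertical axes, each starting at 0) of the 10 polarity genes in each of the 11 embryos, grouped by batch, with controls in blue, mutants in red and a line at the mean of each set of points. In *Prkci* every mutant lies below every control of its own batch, and in *Ezr* 1 mutant of batch 1 stands at 10 TPM.

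The first comparison asked which of these genes differ between embryos with and without PRDM10. None of the 10 genes was called between mutants and controls, against 1.42% of all 10448 genes tested (148 genes, 58 higher and 90 lower, or 0.555% and 0.861%). All 10 passed the filter on low counts. A gene was called changed at a DESeq2 adjusted p below 0.05 with a mean normalised count above 10. At an unadjusted p under 0.05 in this DESeq2 fit, *Prkci* alone passed, 1 of 10 against 11.9% of all genes tested. By limma on log2(TPM + 1) *Prkci* (unadjusted p = 0.00821) and *Pard3* (0.00945) both passed, against 1121 of 11675 genes. The edgeR quasi-likelihood test and limma on log2(TPM + 1) also called 0 of the 10. Over all genes edgeR called 35 (8 higher and 27 lower) and limma 22 (1 higher and 21 lower). The median log2 fold change was 0.22 over the 10 genes and 0.00 over all genes tested, with 6 genes above 0 and 4 below.

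*Prkci*, which encodes the atypical kinase PKCι, had the lowest fold change of the 10 (log2 fold change -1.24 ± 0.38 (SE), DESeq2 adjusted p = 0.0626). In batch 2 the 3 controls were at 4.14, 4.47 and 4.41 TPM and the 3 mutants at 3.14, 0.98 and 1.9 TPM. In batch 1 the controls were at 3.44, 3.16 and 2.45 TPM and the mutants at 1.67 and 0.57 TPM. Within each batch every mutant was below every control, while over both batches mutant 1 (3.14 TPM) was above control 6 (2.45 TPM). A lack of overlap within both batches with mutants lower was found for 1.46% of the genes tested. The difference was as large in batch 1 alone (-1.26 ± 0.71) as in batch 2 alone (-1.22 ± 0.54), and the difference between the batches was -0.04 ± 0.81 (SE, DESeq2 adjusted p = 1).

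The *Prkci* values rest on few reads, between 10 and 115 expected counts per embryo. Its fold change was negative in all 26 alternatives, from -1.55 to -0.92. Those that changed only independent filtering, the mean-count cut-off or the Cook's distance filter reused the main fit and repeat its -1.24. *Prkci* passed the threshold without mutant 1 (-1.55, DESeq2 adjusted p = 0.00865) and without mutant 4 (-1.49, DESeq2 adjusted p = 0.0402). The adjusted p was 0.276 by edgeR, 0.35 by limma and 0.052 by DESeq2 with an effective-length offset, and over all alternatives it ran from 0.00865 to 0.809. Each library pools the blastomeres of 1 embryo, so less RNA per cell and fewer expressing cells cannot be told apart.

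**Figure D2:**
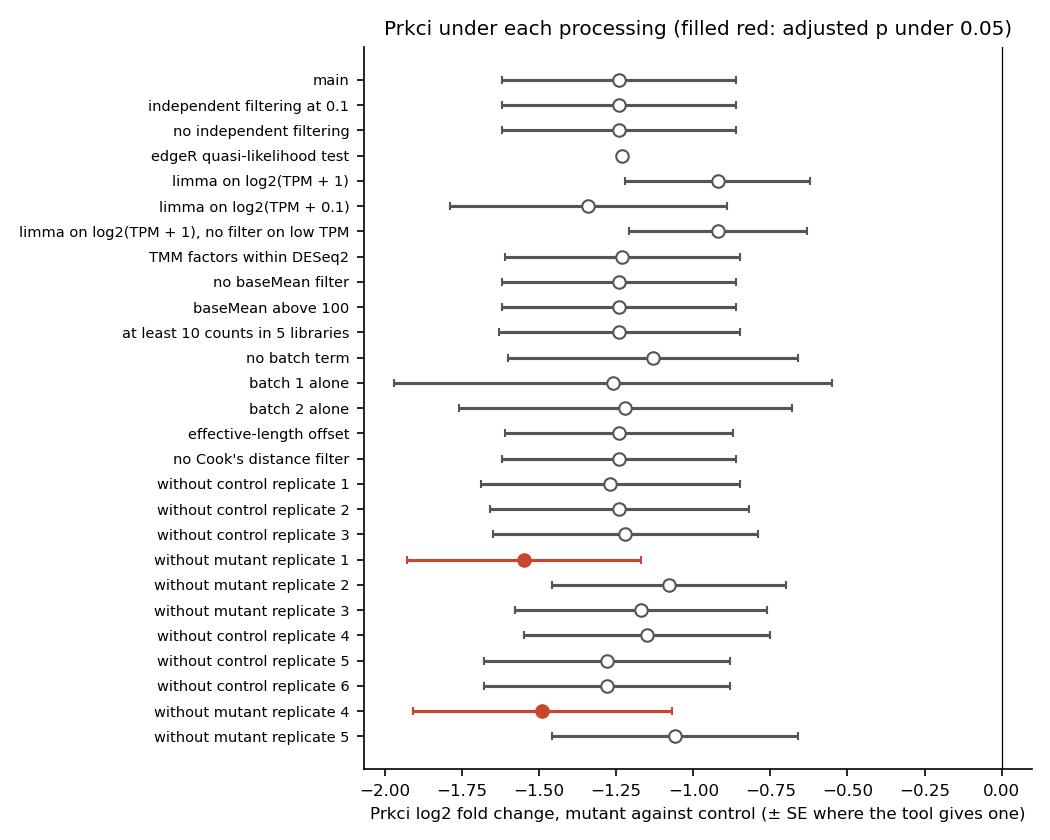
Log2 fold change of *Prkci* between mutants and controls (horizontal axis, with its SE where the tool gives one) under the main processing and each alternative (vertical axis). All points lie below 0, between -1.55 and -0.92, and the 2 filled points, without mutant 1 and without mutant 4, are the settings in which it was called.

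*Prkcz*, which encodes the second atypical kinase PKCζ, was higher than *Prkci* in TPM in 11 of 11 embryos (log2 ratio of *Prkci* over *Prkcz* on the TPM + 1 scale -2.80 ± 0.90, SD, n = 11, and -3.24 on the TPM + 0.1 scale). TPM is divided by effective length, which ran from 1106 to 2073 bases for *Prkcz* and from 2953 to 4634 for *Prkci*. On expected counts *Prkci* was the higher in control 1 (115 against 68) and *Prkcz* in every other embryo. In batch 2 *Prkcz* was at 7.43, 24.5 and 24.4 TPM in controls and at 37.2, 19.5 and 25.6 TPM in mutants. In batch 1 it was at 23, 42.2 and 20.2 TPM in controls and at 28.4 and 24.4 TPM in mutants. The groups overlapped in both batches, with control 1 lowest and control 5 highest of all. Its fold change was 0.49 ± 0.29 (SE, DESeq2 adjusted p = 0.534), and 0.29 ± 0.22 without control 1. Over the 26 alternatives it ran from 0.26 (batch 1 alone) to 0.67 (batch 2 alone).

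Together the atypical kinases averaged 27.3 ± 11 TPM (SD) over the 6 controls and 28.6 ± 7.4 TPM (SD) over the 5 mutants. The share of *Prkci* in that sum was lowest at 6.97%, 14.2% at the median and highest at 35.8% in controls. In mutants it was 7.79%, 4.78%, 6.91%, 5.56% and 2.29%. The groups overlapped by 1 embryo on each side, control 5 and mutant 1. This share was chosen after the values of *Prkci* had been seen and was not tested. It is taken from TPM and so rests on the effective lengths of both genes.

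Of the 7 other protein kinase C genes, which encode the diacylglycerol-dependent kinases outside the PAR complex, 3 passed the filter on low counts and 1 was called, against 1.42% of all genes tested. *Prkcd*, which encodes PKCδ, fell (log2 fold change -0.93 ± 0.27 (SE), DESeq2 adjusted p = 0.0414). In batch 2 it was at 42.8, 22.1 and 17.1 TPM in controls and at 13.9, 11.9 and 21.9 TPM in mutants, which overlapped. In batch 1 it was at 66.2, 74.7 and 92.4 TPM in controls and at 33.7 and 33 TPM in mutants, which did not. The call was made in 13 of 26 alternatives. Among these 13, settings that changed only independent filtering, the mean-count cut-off or the Cook's distance filter reused the main fit and its fold change. The call was lost with edgeR (adjusted p = 0.241) and with limma on log2 TPM (adjusted p from 0.286 to 0.616). It was also lost without a batch term (DESeq2 adjusted p = 0.282) and in batch 2 alone (0.794). Leaving out control 1, 5 or 6 or mutant 1, 2, 4 or 5 lost it as well (DESeq2 adjusted p from 0.089 to 0.248). *Prkce* was at 1.41 ± 0.56 (DESeq2 adjusted p = 0.231).

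**Figure D3:**
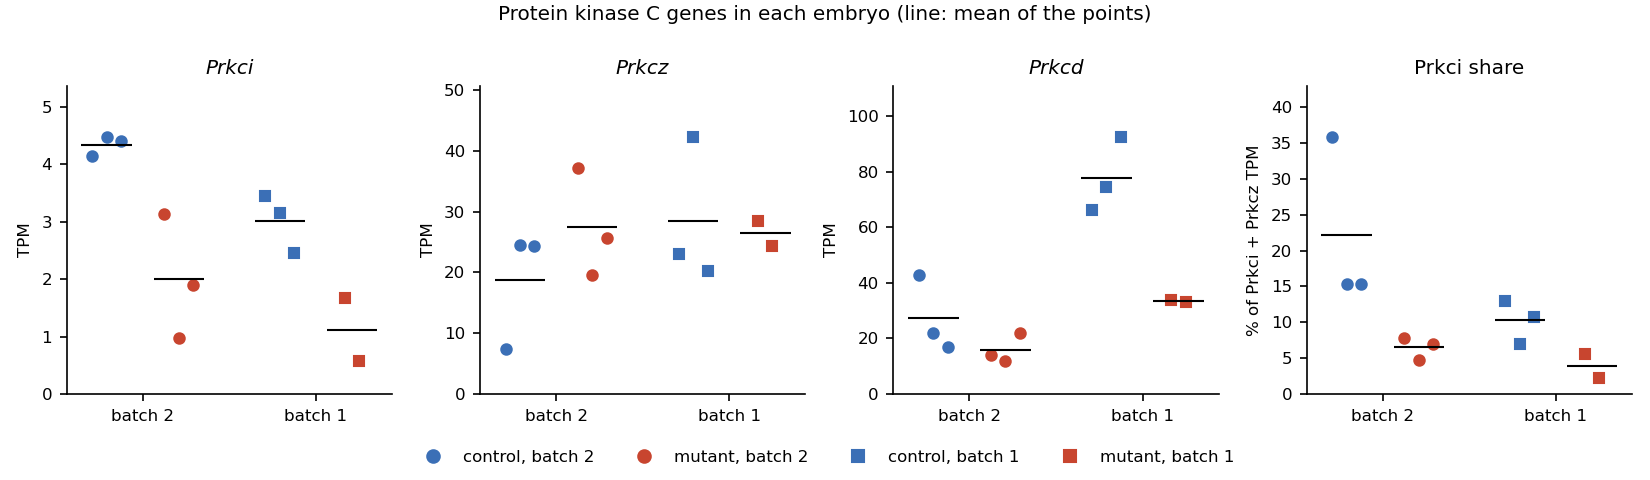
TPM of *Prkci*, *Prkcz* and *Prkcd* and the share of *Prkci* in the summed TPM of *Prkci* and *Prkcz* (percent) in each embryo, grouped by batch, with controls in blue, mutants in red and a line at the mean of each set of points. *Prkcz* lies above *Prkci* in all 11 embryos, and the *Prkci* share is at or below 7.79% in the 5 mutants.

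*Pard3*, the scaffold of the complex, was the second gene whose groups did not overlap within either batch, here with mutants higher. In batch 2 it was at 5.64, 1.37 and 4.37 TPM in controls and at 9.41, 13.8 and 6.21 TPM in mutants. In batch 1 it was at 3.78, 3.67 and 3.36 TPM in controls and at 8.64 and 4.75 TPM in mutants. A lack of overlap within both batches in either direction was found for 2.46% of the genes tested. On counts the difference was small (log2 fold change 0.58 ± 0.38 (SE), DESeq2 adjusted p = 0.581). With 1 embryo left out it ran from 0.35 (without control 2) to 0.71 (without control 1 or mutant 5). With the effective-length offset it was 1.15 ± 0.38 (DESeq2 adjusted p = 0.092), and by limma on log2(TPM + 1) it was 1.00 ± 0.33 (adjusted p = 0.351). The effective length of *Pard3* was lower in 4 of 5 mutants than in every control, and TPM is divided by this length.

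*Pard6b*, which encodes the adaptor PAR6B, was at 1.96, 3.55 and 5.03 TPM in batch 2 controls and at 5.16, 5.01 and 5.15 TPM in batch 2 mutants. In batch 1 it was at 6.1, 5.89 and 5.45 TPM in controls and at 5.68 and 9.73 TPM in mutants. The groups overlapped in both batches, and the fold change was 0.48 ± 0.30 (SE, DESeq2 adjusted p = 0.553).

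The GTPase genes had fold changes near 0. *Cdc42*, the activator of the PAR complex, averaged 338 ± 45.5 TPM (SD) over the 6 controls and 312 ± 24.7 TPM (SD) over the 5 mutants, with a log2 fold change of -0.12 ± 0.14 (SE, DESeq2 adjusted p = 0.825). *Rhoa* was at 359 ± 42.3 TPM in controls and 339 ± 57.2 TPM in mutants, with a log2 fold change of -0.07 ± 0.15 (SE, DESeq2 adjusted p = 0.93). These were the smallest standard errors of the 10 genes.

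*Ezr*, the gene of the apical linker ezrin, had the highest fold change of the 10, and its value depended on single embryos. In controls it was at 1.4, 0.46 and 0 TPM in batch 2 and at 2.14, 1.1 and 0.06 TPM in batch 1. In mutants it was at 0.89, 0.09 and 2.67 TPM in batch 2 and at 1.94 and 10 TPM in batch 1. The 0 in control 3 is a count of 0, which allows up to 3 counts. The log2 fold change was 1.75 ± 0.94 (SE, DESeq2 adjusted p = 0.477), and without mutant 5, the embryo at 10 TPM, it was 0.83 ± 1.09 (DESeq2 adjusted p = 0.998). Without control 1 it was 2.64 ± 0.96 (DESeq2 adjusted p = 0.217), in batch 1 alone 2.78 ± 1.00 and in batch 2 alone 0.86 ± 1.39, and no alternative called it.

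Over all 11 embryos the TPM of each basolateral gene overlapped between the groups. *Mark2* averaged 43 ± 17 TPM (SD) over the 6 controls and 38 ± 8.08 TPM (SD) over the 5 mutants (log2 fold change -0.13 ± 0.21 (SE), DESeq2 adjusted p = 0.892). *Llgl1* was at 9.52 ± 4.42 TPM in controls and 8.89 ± 3 TPM in mutants (0.02 ± 0.28, DESeq2 adjusted p = 0.995). The TPM of *Scrib* did not overlap in batch 1, at 4.38 and 2.25 in mutants and at 5.59, 5.2 and 5.76 in controls. Its normalised counts in batch 1 did overlap, at 32.8 and 18.6 in mutants and at 44.3, 21.5 and 19 in controls, and the fold change in that batch alone was -0.14 ± 0.78 (SE, DESeq2 adjusted p = 1). The effective length by which TPM is divided was 1771 and 1893 bases in these mutants and 2000, 957 and 702 bases in these controls. In batch 2 it was at 11.1, 17.5 and 12.8 TPM in mutants and at 3.93, 11.2 and 4.74 TPM in controls. The fold change of *Scrib* over both batches was 0.42 ± 0.45 (SE, DESeq2 adjusted p = 0.805). With 1 embryo left out it lay between 0.18 (without control 1) and 0.66 (without control 4). The difference of the genotype effect on *Scrib* between batches, batch 1 minus batch 2, was -1.0 ± 0.92 (DESeq2 adjusted p = 1).

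**Figure D4:**
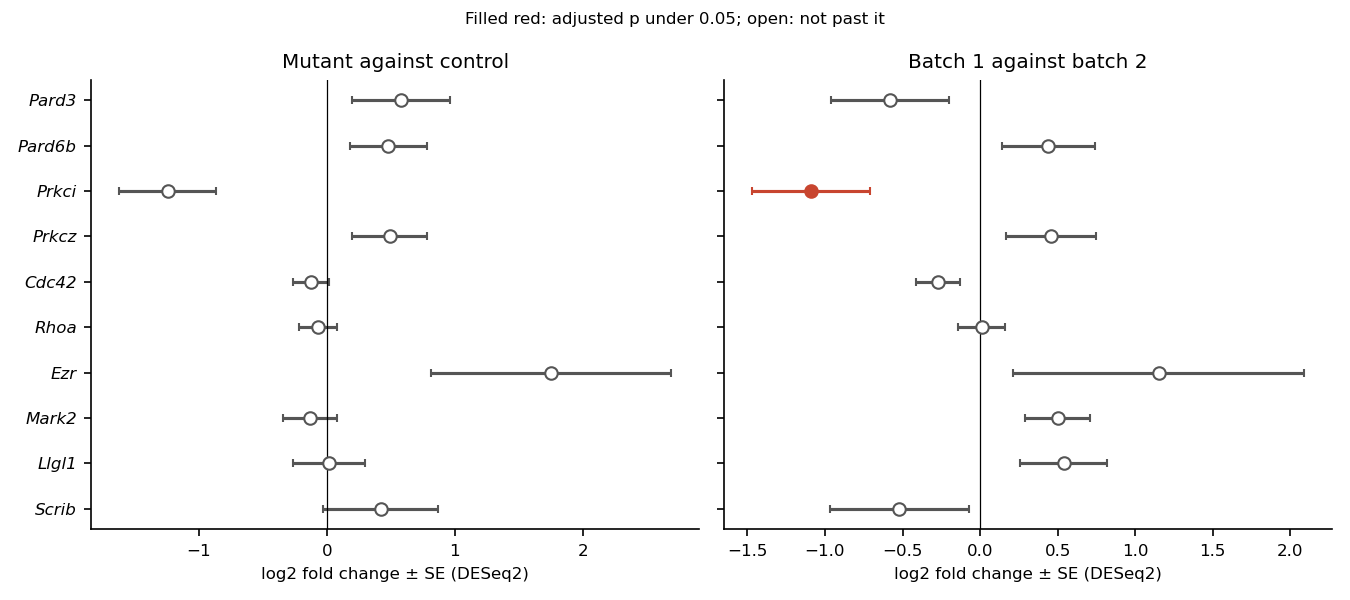
DESeq2 log2 fold changes with their standard errors (horizontal axes) of the 10 genes for mutants against controls, left, and for batch 1 against batch 2, right. *Prkci* is lowest in both, at -1.24 and -1.09, and is filled red, called, only on the right.

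The interaction of batch and genotype was called for 0.0573% of 10472 genes tested, and for none of the 10 polarity genes. None of the 10 had an unadjusted p under 0.05 in that DESeq2 fit, against 451 of the 10472 genes tested, and edgeR called 0 genes in all. With the effective-length offset the *Scrib* interaction was -1.91 ± 0.83 (DESeq2 adjusted p = 1), with an unadjusted p under 0.05.

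The other genes of the pathway were taken from a list of 47, of which 33 were tested. None was called between mutants and controls by DESeq2, edgeR or limma on log2(TPM + 1), and 5 of 33 had an unadjusted DESeq2 p under 0.05, against the 11.9% of all genes. These 5 were all higher in mutants: the basolateral scaffold gene *Dlg1* (0.90 ± 0.45), the LKB1 partner gene *Strada* (0.37 ± 0.16), the 14-3-3 gene *Ywhag* (0.55 ± 0.21), and the transcription factor genes *Tfap2c* (0.38 ± 0.16) and *Tead4* (0.39 ± 0.19), with DESeq2 adjusted p from 0.214 to 0.427. They are named for their p and were chosen after their values were seen. Over the 33 genes the median log2 fold change was 0.14, with 23 above 0 and 10 below.

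Between batches, 1 of the 10 polarity genes was called, against 27.7% of all genes tested, of which 14% were higher and 13.8% lower in batch 1 (1461 and 1438 genes). By limma on log2(TPM + 1) the split was 1801 higher and 600 lower, with the median of all genes shifted by 0.19. The called gene was *Prkci*, which was lower in batch 1 (log2 fold change -1.09 ± 0.38 (SE), DESeq2 adjusted p = 0.0226). The call was lost in 9 of 18 alternatives, in the controls alone among them (-1.07 ± 0.46, DESeq2 adjusted p = 0.106), and leaving out control 3, 5 or 6 or mutant 1 or 5 was enough to lose it (DESeq2 adjusted p from 0.0573 to 0.0936). Calls gained by other members were those of *Mark2* (0.50 ± 0.21, DESeq2 adjusted p = 0.0609) without mutant 3 (0.0421) or without a group term (0.0485), *Pard3* (-0.58 ± 0.38, adjusted p = 0.288) without control 2 (-0.81, 0.0419), and *Scrib* (-0.52 ± 0.45, adjusted p = 0.446) with the effective-length offset (-1.25, 0.0365). TPM of the batches did not overlap for 1 of the 10 genes, against 12.7% of the genes tested. This gene was *Pard6b*, at 1.96 to 5.16 TPM in batch 2 and 5.45 to 9.73 TPM in batch 1, although on counts it was not called (0.44 ± 0.30, DESeq2 adjusted p = 0.303). TPM of mutants and controls over all embryos did not overlap for 0.871% of the genes tested and for none of the 10.

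Of the other polarity genes, 13 of 33 were called between batches, against 27.7% of all genes tested, with 5 higher and 8 lower in batch 1, against 14% and 13.8%. The genes of the transcription factors TFAP2C and TEAD4, which act in apical domain formation and the trophectoderm programme, were both higher in batch 1. *Tfap2c* ran from 34.4 to 61.3 TPM in batch 2 and from 75.4 to 131 TPM in batch 1 (log2 fold change 0.94 ± 0.16 (SE), DESeq2 adjusted p = 1.08e-07). *Tead4* ran from 42.2 to 89 TPM in batch 2 and from 86 to 161 TPM in batch 1 (0.76 ± 0.19, DESeq2 adjusted p = 0.000964). The largest rise among the called genes was that of *Llgl2*, the paralog of *Llgl1* (1.78 ± 0.46, DESeq2 adjusted p = 0.00138). *Strada* (0.59 ± 0.16) and the ezrin kinase gene *Stk10* (1.1 ± 0.43, DESeq2 adjusted p = 0.046) also rose, and the rise of *Stk10* was weaker in 12 of 18 alternatives.

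Lower in batch 1 were the Crumbs complex scaffold gene *Pals1* (-1.70 ± 0.51), the basolateral scaffold genes *Dlg1* (-1.51 ± 0.45) and *Erbin* (-1.24 ± 0.34), the RAC exchange factor gene *Tiam1* (-1.11 ± 0.26) and the radixin gene *Rdx* (-0.98 ± 0.34). The LKB1 partner gene *Cab39* (-0.57 ± 0.12) and the 14-3-3 genes *Ywhag* (-0.60 ± 0.21) and *Ywhaz* (-0.55 ± 0.16) completed this group. In the 6 controls alone, where the calls over all genes fell from 2899 to 1498, 10 of these 13 calls were lost and those of *Tfap2c*, *Tead4* and *Llgl2* were kept. All 10 had the same direction there, among them *Pals1* (-1.90 ± 0.72, DESeq2 adjusted p = 0.0567), *Dlg1* (-1.37 ± 0.64, adjusted p = 0.144) and *Rdx* (-0.80 ± 0.45, adjusted p = 0.255). *Prkcd* was also higher in batch 1 (1.12 ± 0.27).

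Summed markers of oviduct and cumulus cells did not overlap between the batches, while those of blood did. The 5 oviduct markers summed to between 1.59 and 33.3 TPM in batch 2 and to between 0.29 and 1.02 TPM in batch 1. *Ovgp1* alone among them separated the batches, at 1.45 to 30.1 TPM in batch 2 and 0 to 0.81 TPM in batch 1. The TPM of *Pax8*, *Foxj1*, *Krt7* and *Wt1* overlapped. The 5 blood markers summed to between 1.84 and 20.4 TPM in batch 2 and between 0.23 and 5.42 TPM in batch 1. Of these 5, *Tyrobp* alone separated the batches, at 1.16 to 9.24 TPM in batch 2 and at 0 in all 5 embryos of batch 1. The 6 cumulus markers summed to between 58.8 and 93.6 TPM in batch 2 and between 25.9 and 55.8 TPM in batch 1, but *Foxl2* and *Has2* were at 0 in all 11 embryos and nearly all of the sum was *Nr5a2*, which preimplantation embryos also express. Summed oocyte markers overlapped, at 31.7 to 108 TPM in batch 2 and 38.3 to 63.5 TPM in batch 1. Of that list *Oosp1* alone was called between batches, lower in batch 1 (-2.53 ± 0.57, DESeq2 adjusted p = 0.000134). The ranges of each list overlapped between mutants and controls. Whether such cells were present, and their part in the batch differences, was not tested.

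**Figure D5:**
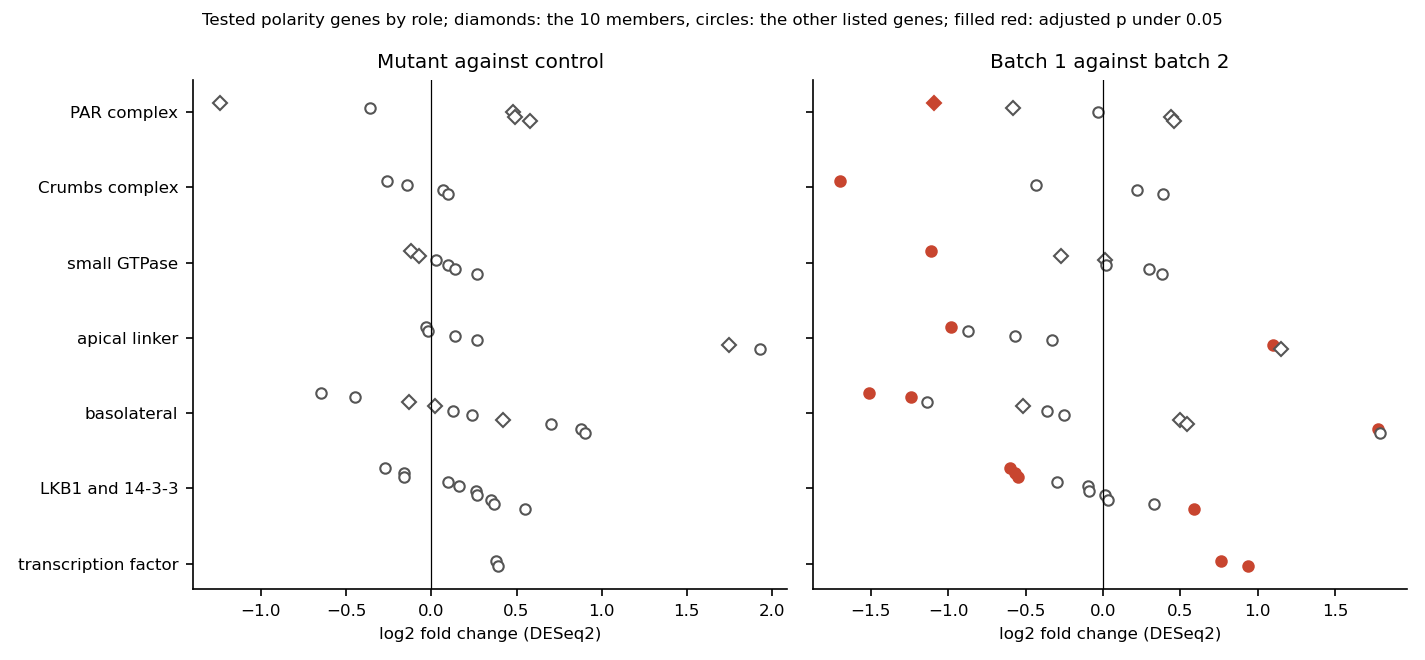
DESeq2 log2 fold changes of the tested polarity genes by role, for mutants against controls, left, and batch 1 against batch 2, right; diamonds are the 10 genes described here, circles the other listed genes, and filled red marks an adjusted p below 0.05. No gene is filled on the left and 14 are filled on the right, *Prkci* and 13 circles.

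The members were compared with their paralogs by TPM. In 8 of 15 pairs the listed gene was higher than its paralog in all 11 embryos, and in 1 pair, *Prkci* and *Prkcz*, it was lower in all 11. *Pard3b* (0.0664 TPM on average) and *Pard6g* (0.233 TPM) were near 0, while *Pard6a* (4.67 TPM) and *Pard6b* did not differ beyond their spread (log2 ratio of *Pard6b* over *Pard6a* 0.18 ± 0.79, SD, n = 11). *Rhoa* exceeded *Rhob* (2.15 TPM) and *Rhoc* (1.4 TPM) by log2 ratios of 6.96 ± 0.72 and 7.22 ± 0.48 on the TPM + 1 scale, and by 7.94 and 7.97 on the TPM + 0.1 scale. *Cdc42* exceeded *Rac1* (114 TPM), the GTPase of branched actin, by 1.55 ± 0.40.

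Among the linkers of membrane and actin, radixin (*Rdx*, 6.18 TPM) was higher than *Ezr* in 10 of 11 embryos, mutant 5 being the exception, and *Msn* (0.725 TPM) was lower than *Ezr* in 7 of 11. Among the basolateral kinases, *Mark2* and *Mark3* (44.1 TPM) did not differ beyond their spread (-0.12 ± 0.77), and *Mark1* (1.41 TPM) and *Mark4* (1.47 TPM) were far lower. *Llgl2* (16.7 TPM) was higher than *Llgl1* in 10 of 11 embryos (log2 ratio of *Llgl1* over *Llgl2* -0.63 ± 0.62). *Scrib* was higher than *Lrrc1* (0.136 TPM) in 11 of 11 and than *Erbin* (2.26 TPM) in 10 of 11.

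Of the 47 other polarity genes, 34 averaged 1 TPM or more and 2, *Crb2* and *Lin7a*, were at 0 in all embryos. The Crumbs complex was led by *Crb3* (197 ± 58.8 TPM, SD, n = 11), the short epithelial Crumbs. *Ywhaq* (545 ± 127 TPM) and *Sfn* (543 ± 131 TPM) were the most abundant of the LKB1 and 14-3-3 genes and *Stk11*, which encodes LKB1, the least (33.2 ± 8.77 TPM). *Rdx* led the apical linkers and *Nherf2* (0.547 ± 0.638 TPM) was lowest. *Mark3* led the basolateral genes by mean TPM, though not beyond its spread from *Mark2*, and *Dlg2* (0.0527 ± 0.145 TPM) was lowest. *Rhoj* (0.0718 ± 0.18 TPM) was the lowest of the GTPase group.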

How the data were processed

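Single-embryo libraries were grouped by the genotype and batch given in the labels. The deposited tables hold, for each gene, the expected count and the TPM that the authors obtained with RSEM after STAR (version 2.6.0c) alignment to GRCm38.p6, the effective length, and the posterior standard deviation of the count. A deposited table of the authors' own comparison (fold changes, p-values) was not used. Symbols and positions came from a newer GENCODE release for that build, promoter windows from RefSeq (GRCm38.p6), and gel-shift probes and the bound gene list from the study's supplementary tables. Of the members, 9 of 10 had a promoter entry.

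Expected counts were rounded and fitted over all genes with DESeq2 (version 1.42.0, R 4.3.3) as batch plus genotype, with Benjamini-Hochberg adjustment and independent filtering at 0.05. This filtering setting was not fixed beforehand; filtering at 0.1 and no filtering were run as well. Genes were called at an adjusted p under 0.05 and a mean normalised count above 10. Alternatives were edgeR (version 4.0.16), limma (version 3.58.1) on log2(TPM + 1) or log2(TPM + 0.1) with a mean TPM of at least 1 or no filter, TMM factors, other count filters (none, 100, or 10 counts in 5 libraries), no batch term, each batch alone, an effective-length offset, no Cook's distance filter, and leaving out each embryo. The fits were tested on a single draw of simulated data, in which DESeq2, edgeR and limma each called a larger share of false genes than the nominal rate, DESeq2 the largest. Ratios between genes were taken on log2(TPM + 1), with log2(TPM + 0.1) as the alternative. Named genes were the members, *Prdm10*, paralogs, listed genes past the threshold, the most and least abundant gene of each role, and markers. The members and lists were chosen with earlier results of these data known. Reads carry no molecular identifiers, so PCR copies could not be told from separate molecules. The SE come from fits over separate embryos and the SD from their values, so both include the spread between embryos. Replicate numbers do not pair embryos.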

Additional observations from a re-analysis of the deposited data

Results flagged for a closer look

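In 3 of 24 sets of TPM values, each of 1 gene in the 6 controls or the 5 mutants, 1 embryo stood apart from the others by Dixon's criterion. Chance meets it in about 1 of 20 sets drawn from a single normal distribution. Each set here pooled both batches, so the 3 of 24 cannot be set against that rate. *Ezr* was at 10 TPM in mutant 5, and the next highest mutant was at 2.67 TPM. *Pard6b* was at 9.73 TPM in the same embryo, and the next highest mutant was at 5.68 TPM. *Scrib* was at 11.2 TPM in control 2, and the next highest control was at 5.76 TPM. Without mutant 5 the log2 fold change between mutants and controls was 0.83 for *Ezr* and 0.34 for *Pard6b*, and without control 2 it was 0.53 for *Scrib*; none was called with or without that embryo.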

How the results depend on the processing

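The number of genes called between mutants and controls, 148 with the main settings, was 35 with edgeR, 22 with limma on log2(TPM + 1), 21 on log2(TPM + 0.1), 12 without the filter on low TPM, 51 without a batch term, 78 in batch 1 alone and 48 in batch 2 alone. Leaving out 1 embryo gave 86 (without mutant 2) to 264 (without control 2). With independent filtering at 0.1, added after seeing the data, it was 141 and without independent filtering 153, and neither changed a call of a polarity gene or of *Prkcd*. The number of members called, 0, was 1 (*Prkci*) without mutant 1 or mutant 4, so leaving out 1 embryo gave 0 to 1. For the other polarity genes the number also ran from 0 to 1, the 1 being *Ywhag* without control 4 (DESeq2 adjusted p = 0.0348). Between batches 2899 genes were called, and 1498 in the controls alone. The interaction was called for 6 genes, for 10 with the effective-length offset and for 0 with edgeR (339 at an unadjusted p under 0.05), and leaving out 1 embryo gave 0 to 22.

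The following member fold changes, none of them called, changed sign. Between mutants and controls *Rhoa* was at 0.01 and *Scrib* at -0.14 in batch 1 alone. *Llgl1* was at -0.08 without a batch term, at -0.21 in batch 1 alone, and between -0.12 and 0.20 with 1 embryo left out. Between batches *Rhoa* was at -0.01 with edgeR, at -0.05 in the controls alone and between -0.03 and 0.10 with 1 embryo left out, the value nearest to 0 being -0.004. The call of *Prkcd* was lost in 13 of 26 alternatives and that of *Prkci* between batches in 9 of 18. Among the other polarity genes called between batches, the result was weaker most often for *Stk10* (12 of 18 alternatives), then *Rdx* and *Ywhag* (6 of 18 each). Counts per embryo were as low as 10 for *Prkci*, 9 for *Pard3* and 0 for *Ezr*, which limits the precision of their fold changes. No paired analysis was possible because replicate numbers were given in accession order and the labels carry none.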
